A study of Mus musculus with 34 samples.

Results

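The Ly6 surface antigens described here are 6 mouse genes, Ly6g, Ly6c2, Ly6c1, Ly6a, Ly6e and Ly6d. They were matched by symbol to the gene IDs of blood RNA-seq count tables, and all 6 were found among 54532 IDs. The blood came from wild-type mice in 4 groups: ALY688 together with lipopolysaccharide (LPS, a bacterial cell wall component sensed by TLR4; 7 mice), LPS alone (4 mice), ALY688 alone (10 mice) and phosphate-buffered saline (PBS; 9 mice). ALY688 is an adiponectin receptor agonist, per the series title. No group carried an engineered allele according to the labels, and neither doses and sampling times nor the animals' sex and age are stated in the labels used. The series text describes mice with and without LPS as if in separate experiments, on plasma and on whole blood, so LPS and experiment cannot be told apart below.

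Ly6 proteins are small cysteine-rich proteins that are tethered to the outer cell membrane by a glycosylphosphatidylinositol (GPI) anchor, and mouse leukocytes are routinely sorted by them. Ly6g is the classic antigen of mouse neutrophils, and high Ly6C marks the classical, inflammatory monocytes. Ly6a is Sca-1, the stem cell antigen, which activated lymphocytes and interferon-exposed cells also carry. Ly6e is a widely expressed, interferon-inducible member that restricts entry of some viruses, and Ly6d marks B-lineage commitment in the bone marrow and mature B cells.

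All 6 genes lie in the Ly6 cluster of chromosome 15 (GRCm38, GENCODE M21). Along the chromosome they are Ly6d (ENSMUSG00000034634, chr15:74762056-74763620, minus strand), Ly6e (ENSMUSG00000022587, chr15:74955051-74959905, plus), Ly6a (ENSMUSG00000075602, chr15:74994877-74998031, minus), Ly6c1 (ENSMUSG00000079018, chr15:75044018-75048830, minus), Ly6c2 (ENSMUSG00000022584, chr15:75108158-75111970, minus) and Ly6g (ENSMUSG00000022582, chr15:75155240-75159126, plus). No other annotated gene overlaps any of them.

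The sequences decide how well the members can be told apart by short reads. The coding sequences of Ly6c1 and Ly6c2 were 97.7% identical, with 9 differing bases in 393. Their first 120 coding bases (chromosome 15, minus strand, GENCODE M21) follow with the 6 differing bases in capitals, because a read without a differing base matches either gene.
Ly6c1: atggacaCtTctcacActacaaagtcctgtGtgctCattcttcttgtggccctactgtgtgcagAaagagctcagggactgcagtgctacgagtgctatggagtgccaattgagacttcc
Ly6c2: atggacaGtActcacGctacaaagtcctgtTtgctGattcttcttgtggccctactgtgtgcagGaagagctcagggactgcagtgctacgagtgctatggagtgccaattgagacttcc
The longest identical coding stretch of both genes ran over 188 bases.

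Of all 50-base windows of the transcript, 36.7% in Ly6c1 and 33.0% in Ly6c2 occurred in another annotated gene, mostly the other Ly6c gene. With 100-base windows the shares were 15.3% and 15.8%. For Ly6a the 50-base share was 10.0%, with matches mainly in Ly6c1 and Ly6i, and for Ly6g it was 0.448%. No 50-base window of Ly6e or Ly6d occurred elsewhere. The labels do not say how reads matching both Ly6c genes were counted, so the split between Ly6c1 and Ly6c2 is uncertain. Ly6g, Ly6a and both Ly6c genes formed a close subgroup, with pairwise coding identities of 79.9% to 83.7% outside the Ly6c pair. Ly6e and Ly6d shared 59.6% to 68.5% with the others.

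The RefSeq promoters of 3 members, taken from 250 bases before to 50 bases after the start of transcription (GRCm38.p6), are printed so that Ly6c1, Ly6c2 and Ly6g can be compared. The promoter table used here matched these 3 of the 6 members, and Ly6a, Ly6e and Ly6d were not matched. Capitals mark matches to TATAAA, to the PU.1 core AGGAAGT and to TTGCNNAA, a C/EBP pattern, searched on both strands.
Ly6g (chr15:75155011-75155310, plus strand): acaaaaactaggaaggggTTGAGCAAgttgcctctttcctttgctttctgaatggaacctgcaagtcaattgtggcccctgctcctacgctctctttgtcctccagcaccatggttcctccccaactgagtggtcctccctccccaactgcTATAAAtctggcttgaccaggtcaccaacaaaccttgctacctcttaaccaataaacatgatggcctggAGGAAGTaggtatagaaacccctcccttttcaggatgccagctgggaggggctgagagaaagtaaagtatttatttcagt
Ly6c1 (chr15:75048788-75049087, minus strand): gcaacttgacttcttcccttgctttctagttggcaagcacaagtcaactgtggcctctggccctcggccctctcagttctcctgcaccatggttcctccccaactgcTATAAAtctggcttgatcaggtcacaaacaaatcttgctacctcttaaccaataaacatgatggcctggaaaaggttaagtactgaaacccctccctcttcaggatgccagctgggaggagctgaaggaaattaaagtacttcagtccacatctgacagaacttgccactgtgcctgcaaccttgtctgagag
Ly6c2 (chr15:75111922-75112221, minus strand): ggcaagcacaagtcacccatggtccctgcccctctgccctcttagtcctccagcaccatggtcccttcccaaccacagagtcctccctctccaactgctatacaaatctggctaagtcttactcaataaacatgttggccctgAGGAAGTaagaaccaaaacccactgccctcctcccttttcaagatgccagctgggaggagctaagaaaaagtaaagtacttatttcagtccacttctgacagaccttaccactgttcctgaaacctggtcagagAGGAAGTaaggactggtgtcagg

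The 3 promoters aligned at 84.0% identity for Ly6g and Ly6c1, 82.5% for Ly6g and Ly6c2, and 78.2% for Ly6c1 and Ly6c2. TATAAA lay 99 bases before the start in Ly6g and 143 before it in Ly6c1, and is found in 13.6% of the 32851 promoters of the same length in the table. AGGAAGT, found in 9.35% of them, lay 30 bases before the start in Ly6g, and in Ly6c2 lay 107 bases before and 28 bases after it. TTGCNNAA, found in 10.8%, matched on the reverse strand of Ly6g. Neither GAAA and GAAA set 2 bases apart, an interferon response pattern found in 3.44% of promoters, nor TTCNNNGAA, a STAT pattern found in 8.30%, occurred in these 3 windows. A match is a description of letters and not of a bound site.

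Levels are given as CPM, read counts scaled to a common library size with TMM factors, which adjust each library for its composition. Library totals ran from 9554964 to 17338214 counts, and globin transcripts took 18.5% to 64.4% of them. Globin took 26.3% to 54.3% in ALY688+LPS, 18.5% to 43.7% in LPS, 42.2% to 60.8% in ALY688 and 45.2% to 64.4% in PBS mice. LPS and PBS mice did not overlap in this share, so LPS and globin content cannot be told apart in that comparison. In 6 libraries, PBS mice 5, 6 and 9, ALY688 mouse 7 and ALY688+LPS mice 6 and 8, fewer than 16000 genes had a count, and 3 counts stood at between 0.0688 and 0.904 CPM across all libraries. Marker lists that touch a member are given beside it. Of the others, 8 of 9 patrolling monocyte markers rose in LPS against PBS, and 8 rose and 1 fell in ALY688+LPS against ALY688. Natural killer cell markers gave 7 of 12 higher in LPS against PBS, and 3 higher and 1 lower in ALY688+LPS against ALY688. Plasmacytoid dendritic cell markers gave 1 of 5 higher and 2 lower in the first of these comparisons, and 1 higher and 3 lower in the second. The higher marker was each time Bst2, which is also on the list of type I interferon-stimulated genes. Erythroid markers gave 1 of 11 lower in the first (median -1.73), where DESeq2 called 7 and limma-voom 6. In the second 2 were higher (median 0.10), where DESeq2 called 3 and limma-voom 1. Platelet markers gave 5 of 10 lower and endothelial markers 3 of 6 lower in LPS against PBS, and in ALY688+LPS against ALY688 0 of 10 and 0 of 5 were called by edgeR, DESeq2 or limma-voom, with 0 at an unadjusted p below 0.05. Summed plasma cell markers averaged 144 CPM in ALY688+LPS, 138 in LPS, 93.4 in ALY688 and 87.0 in PBS mice, with 2 of 6 higher and 2 lower in LPS against PBS and 1 higher and 2 lower in ALY688+LPS against ALY688. In blood, fewer cells of a type and less RNA per cell cannot be told apart. Changes are on the log2 scale with the SE that edgeR fitted, and a gene was called where its p, adjusted over all genes tested, was below 0.05. Counts of called markers are to be read beside all genes tested. Of these, 38.7% were called in LPS against PBS and 53.0% in ALY688+LPS against ALY688.

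**Figure D1:**
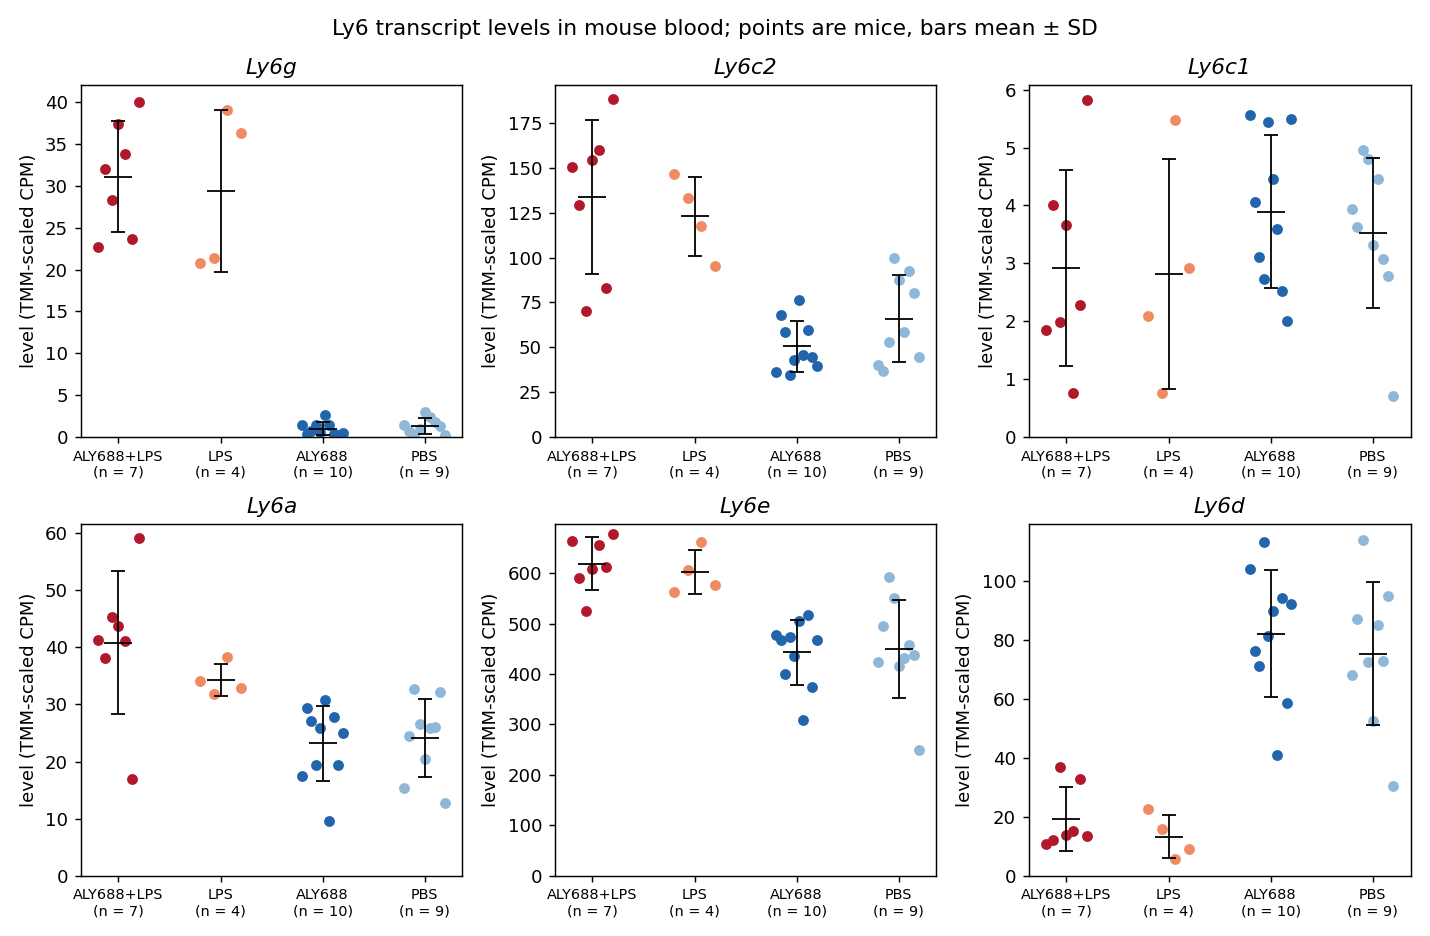
Level of each of the 6 Ly6 genes in every library (TMM-scaled CPM, linear axes from 0), with ALY688+LPS, LPS, ALY688 and PBS from left to right. Points are mice and bars give the mean and SD; Ly6g stands above 20 CPM in all 11 mice given LPS and below 4 CPM in the 19 others, whereas Ly6d runs the other way.

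The LPS comparisons asked which blood transcripts differ in mice given LPS. In LPS against PBS, Ly6g and Ly6c2 rose and Ly6d fell, so 3 of the 6 members were called, while 38.7% of all 12353 genes tested were called (20.9% higher and 17.9% lower). In ALY688+LPS against ALY688, Ly6g, Ly6c2, Ly6a and Ly6e rose and Ly6d fell. These are 5 of 6 members, against 53.0% of 12266 genes (26.4% higher and 26.6% lower). The members' median log2 fold change was 0.46 in the first and 0.65 in the second of these comparisons, and the medians of all genes were -0.04 and -0.05. With library totals in place of TMM, 5597 genes were higher and 298 lower in LPS against PBS, instead of 2577 and 2208, and 1846 were higher and 1204 lower in ALY688+LPS against ALY688, instead of 3236 and 3268. A call alone therefore says little of a member.

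**Figure D2:**
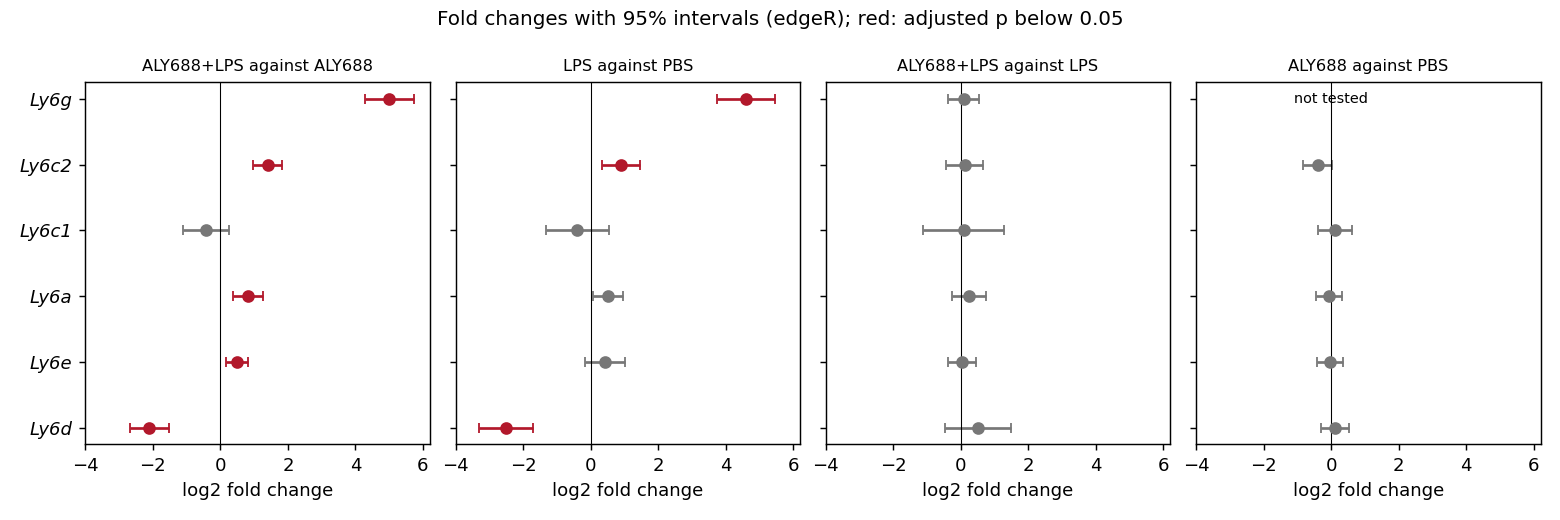
Log2 fold changes of the members with 95% intervals in the 4 comparisons, ordered from LPS effects on the left to ALY688 effects on the right. Red points passed an adjusted p of 0.05 in edgeR and grey points did not; Ly6g lies at 5.01 and 4.61 in the LPS comparisons and was not tested in ALY688 against PBS, where its counts were under the filter.

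Ly6g, the neutrophil antigen, moved farthest. In ALY688+LPS mice its level ran from 22.7 CPM over a median of 32.0 to 40.1 CPM, and the 4 LPS mice stood at 20.8, 21.3, 36.3 and 39.0 CPM. In ALY688 mice it ran from 0.207 over 0.687 to 2.67 CPM, and in PBS mice from 0.195 over 1.34 to 3.01 CPM. The lowest mouse given LPS thus stood far above the highest mouse without it. Behind these levels were 93 to 967 counts per library with LPS and 1 to 42 without.

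The log2 fold change of Ly6g was 4.61 ± 0.41 (SE; 24.4-fold, edgeR adjusted p = 7.87e-07) for LPS against PBS. It was 5.01 ± 0.35 (32.2-fold, adjusted p = 1.14e-09) for ALY688+LPS against ALY688. Groups lay apart in both, as they did upward for 13.2% and 12.6% of all genes tested. By p, Ly6g ranked 84 of 12353 genes in the first comparison and 291 of 12266 in the second. In ALY688 against PBS, with 1 to 42 counts per library, it did not pass the low-count filter. It was tested here in comparisons that include the LPS libraries, where it is high. These folds, ranks and separations therefore rest on a low base.

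Neutrophil genes moved with Ly6g. Of 16 mature neutrophil markers, 14 rose with LPS against PBS (median log2 fold change 2.69), led by Fpr1 and Fpr2, receptors for formyl peptides, and Cd177. With ALY688+LPS against ALY688, 15 rose (median 3.52). Their summed level was 6448 to 14875 CPM in ALY688+LPS, 4786 to 16293 in LPS, 863 to 1869 in ALY688 and 937 to 2743 in PBS. The summed level of 12 granule genes of immature neutrophils, such as Lcn2 and Ngp, was 634 to 2953 CPM in ALY688+LPS, 828 to 2815 in LPS, 39.1 to 341 in ALY688 and 52.5 to 217 in PBS. Only 7 of these 12 passed the filter in each LPS comparison, and 5 in ALY688 against PBS, so no count of calls is given for them.

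Set against the neutrophil markers of its own library, Ly6g had a higher mean ratio with LPS. Per 1000 CPM of summed mature neutrophil markers there were 2.74 ± 0.804 CPM of Ly6g (SD, n = 7) in ALY688+LPS mice and 3.05 ± 0.956 (n = 4) in LPS mice. The ratio was 0.711 ± 0.529 (n = 10) in ALY688 mice and 0.937 ± 0.639 (n = 9) in PBS mice. The highest ratios without LPS, 1.87 in ALY688 and 2.10 in PBS, reached into the range of ALY688+LPS mice, which started at 1.83. The ratios without LPS rest on 3 to 42 Ly6g counts per library in ALY688 and 1 to 16 in PBS mice. At these counts Ly6g did not pass the low-count filter in ALY688 against PBS, so these ratios are uncertain. Against the summed granule genes of immature neutrophils, the ranges of all 4 groups overlapped. The part of cell numbers in the rise of Ly6g was not tested.

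**Figure D3:**
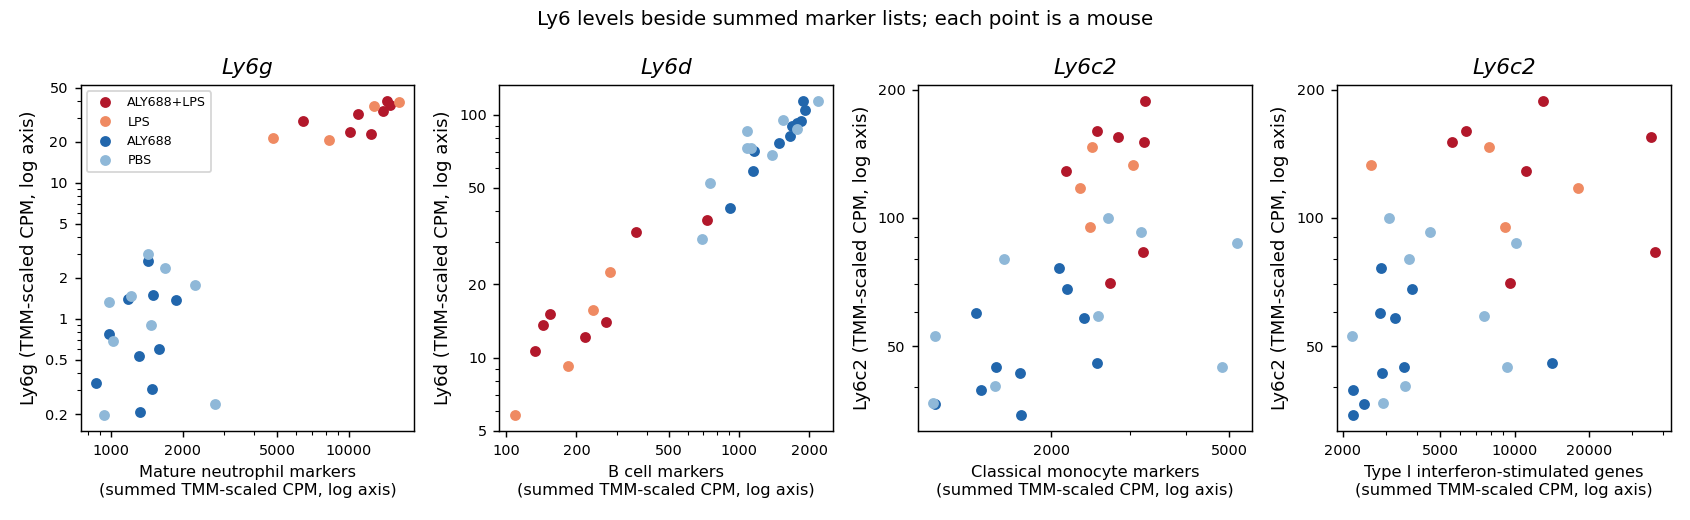
Levels of Ly6g, Ly6d and Ly6c2 against the summed levels of marker lists in the same library (TMM-scaled CPM, log axes on both sides), one point per mouse. Ly6d lies along the B cell markers across all groups, Ly6g separates into mice with and without LPS as the neutrophil markers do, and Ly6c2 spreads more widely against monocyte markers and interferon-stimulated genes.

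Ly6d, the B-lineage antigen, was the member that fell. It ran from 10.6 over a median of 14.0 to 37.0 CPM in ALY688+LPS mice, and the LPS mice stood at 5.77, 9.23, 15.7 and 22.5 CPM. In ALY688 mice it ran from 41.1 over 85.6 to 113 CPM, and in PBS mice from 30.6 over 72.9 to 114 CPM. The highest ALY688+LPS mice, 4 at 37.0 and 8 at 32.8 CPM, stood apart from the other 5, which lay between 10.6 and 15.2 CPM. The lowest ALY688 and PBS mice, 7 and 9, were among the libraries with few detected genes.

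Ly6d was 5.64-fold lower in LPS than in PBS mice (log2 fold change -2.50 ± 0.38 SE, edgeR adjusted p = 8.97e-05). It was 4.28-fold lower in ALY688+LPS than in ALY688 mice (-2.10 ± 0.28, adjusted p = 4.45e-06). Within each comparison the groups lay apart, as they did downward for 5.92% and 6.53% of all genes. With library totals in place of TMM scaling, LPS against PBS gave -1.41 (adjusted p = 0.0676), with the median of all genes then at 1.04.

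All 12 B cell markers fell in both comparisons, with median log2 fold changes of -2.67 for LPS against PBS and -2.48 for ALY688+LPS against ALY688. With library totals alone, 7 of the 12 fell in LPS against PBS and all 12 in the other. Fcer2a, the low-affinity IgE receptor, Pax5, the B cell identity factor, and Cd79b, a chain of the B cell receptor complex, were among the leading genes. Their summed level was 133 to 726 CPM in ALY688+LPS, 109 to 278 in LPS, 914 to 1908 in ALY688 and 689 to 2171 in PBS. ALY688+LPS mice 4 and 8 also held the highest B cell marker sums of their group.

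Ly6d was also set against these markers in its own library. Per 1000 CPM of summed B cell markers there were 74.7 ± 21.2 CPM of Ly6d (SD, n = 7) in ALY688+LPS mice and 62.8 ± 14.2 (n = 4) in LPS mice. The ratio was 53.1 ± 4.96 (n = 10) in ALY688 mice and 59.8 ± 11.5 (n = 9) in PBS mice. The ranges of all 4 groups overlapped. The median ratio was 80.0 in ALY688+LPS, 60.0 in LPS, 51.9 in ALY688 and 61.7 in PBS mice. Group means of the ratio differed less than those of Ly6d or of the marker sum, but the ratio was highest in ALY688+LPS mice. T cell markers fell too, 13 of 14 with LPS against PBS (3 with library totals alone) and all 14 with ALY688+LPS against ALY688. Ly6d is also an epithelial antigen, and the summed level of 10 keratinocyte markers was lower with LPS too. It averaged 7.93 CPM in ALY688+LPS, 6.47 in LPS, 15.3 in ALY688 and 14.3 in PBS mice. Sfn, the one marker of the list that passed the low-count filter, fell in both comparisons (log2 fold changes of -1.21 for LPS against PBS and -0.995 for ALY688+LPS against ALY688). Trp63, the defining factor of that lineage, was at 0 in all 4 groups, and the keratins Krt5 and Krt14 were each at 0 in 3 of the 4 groups. The part of either marker list in the fall of Ly6d was not tested.

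Ly6c2, the antigen of inflammatory monocytes, rose less. In ALY688+LPS mice its level ran from 70.4 over a median of 150 to 189 CPM, and the LPS mice stood at 95.3, 117, 133 and 146 CPM. In ALY688 mice it ran from 34.3 over 45.0 to 76.2 CPM, and in PBS mice from 36.7 over 58.7 to 99.9 CPM. Neither pair of groups was fully apart. LPS mouse 8 stood below PBS mouse 4, and ALY688+LPS mouse 4 stood below ALY688 mouse 6.

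The log2 fold change of Ly6c2 was 0.90 ± 0.27 (SE; 1.87-fold, edgeR adjusted p = 0.0148) for LPS against PBS and 1.40 ± 0.20 (2.65-fold, adjusted p = 8.99e-06) for ALY688+LPS against ALY688. The first call did not hold without LPS mouse 2 (0.81, adjusted p = 0.0540) or with the globin percentage as a covariate (1.34, adjusted p = 0.0812). With both Ly6c genes summed, which removes the question of their split, the changes were 0.86 (adjusted p = 0.0165) and 1.33. Of 10 classical monocyte markers, 5 rose and 1 fell with LPS against PBS (median 0.81), and 6 rose with ALY688+LPS against ALY688 (median 0.84). Cd14, the LPS co-receptor, and Csf1r, the receptor for macrophage growth factor, led them. Their summed levels overlapped between groups, at 2159 to 3247 CPM in ALY688+LPS, 2322 to 3050 in LPS, 1097 to 2527 in ALY688 and 1090 to 5190 in PBS. Per 1000 CPM of these summed markers there were 47.8 ± 15.8 CPM of Ly6c2 (SD, n = 7) in ALY688+LPS mice and 48.1 ± 8.81 (n = 4) in LPS mice. The ratio was 29.1 ± 7.78 (n = 10) in ALY688 mice and 30.6 ± 13.7 (n = 9) in PBS mice. Its ranges overlapped between all 4 groups. The part of monocyte numbers in the rise of Ly6c2 was not tested.

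Ly6c1 was not called in either LPS comparison, unlike its near-identical neighbour. Its level ran from 0.768 over a median of 2.29 to 5.83 CPM in ALY688+LPS mice, and the LPS mice stood at 0.757, 2.10, 2.92 and 5.48 CPM. It ran from 2.00 over 3.83 to 5.56 CPM in ALY688 mice and from 0.706 over 3.63 to 4.95 CPM in PBS mice. These levels rested on 3 to 93 counts per library and overlapped throughout. The log2 fold change was -0.39 ± 0.44 (SE, 95% interval -1.31 to 0.54, edgeR adjusted p = 0.507) for LPS against PBS and -0.44 ± 0.32 (-1.12 to 0.24, adjusted p = 0.270) for ALY688+LPS against ALY688. Its sign in LPS against PBS turned with library totals alone and with the globin covariate.

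The split of Ly6c counts needs no scaling between libraries. Ly6c1 made up 2.21% ± 0.980 (SD, n = 7) of all Ly6c1 and Ly6c2 counts in ALY688+LPS mice, 2.35% ± 1.72 (n = 4) in LPS mice, 7.59% ± 3.41 (n = 10) in ALY688 mice and 5.54% ± 2.85 (n = 9) in PBS mice. The share ran from 0.478% to 3.01% in ALY688+LPS mice and from 4.04% to 13.2% in ALY688 mice, so these groups did not overlap. Their difference was -5.38 points (exact permutation test, two-sided, p = 0.000103, the smallest p this design allows; adjusted p = 0.000411 over the 4 comparisons). Ly6c2 rose in this comparison, so a smaller Ly6c1 share does not mean fewer Ly6c1 transcripts.

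For LPS against PBS the difference in share was -3.19 points (exact permutation p = 0.0587, adjusted p = 0.117), and without LPS mouse 7 it was -3.89 points (exact permutation test, adjusted p = 0.0364). In PBS mice the shares ran from 1.55% in mouse 9, with 3 Ly6c1 counts (95% Wilson interval 0.530% to 4.47%), to 8.99%. In LPS mice they were 0.565%, 1.41%, 2.97% and 4.46%. The intervals cover counting error only.

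**Figure D4:**
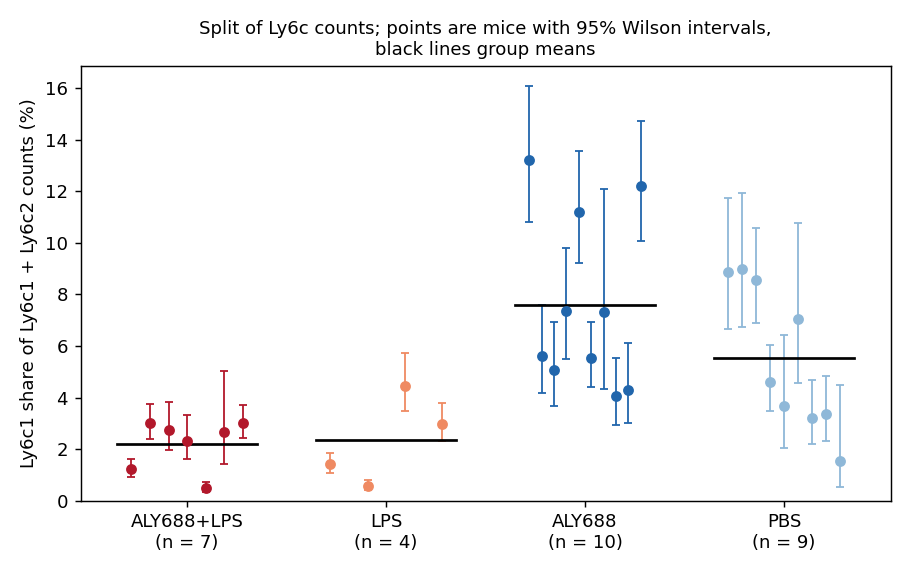
Ly6c1 counts as a percentage of Ly6c1 plus Ly6c2 counts in each library (linear axis from 0), with 95% Wilson intervals and black lines at the group means. All 7 ALY688+LPS mice lie at or below 3.01% and all 10 ALY688 mice at or above 4.04%, while LPS and PBS mice overlap.

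Ly6a, which encodes Sca-1, was called in 1 of the LPS comparisons. It ran from 17.0 over a median of 41.3 to 59.2 CPM in ALY688+LPS mice, and the LPS mice stood at 31.9, 32.8, 34.2 and 38.3 CPM. It ran from 9.66 over 25.4 to 30.8 CPM in ALY688 mice and from 12.7 over 25.8 to 32.8 CPM in PBS mice. The lowest mouse of 3 of the groups, ALY688+LPS mouse 8, ALY688 mouse 7 and PBS mouse 9, was each time a library with few detected genes. Ly6a was 1.76-fold higher in ALY688+LPS than in ALY688 mice (log2 fold change 0.82 ± 0.21 SE, edgeR adjusted p = 0.00276), and with library totals alone the value was 0.93 (adjusted p = 0.0561).

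For LPS against PBS, Ly6a had a log2 fold change of 0.51 ± 0.21 (95% interval 0.06 to 0.96, edgeR adjusted p = 0.0684). That value was called without PBS mouse 3 (0.57, adjusted p = 0.0396) or PBS mouse 8 (0.57, adjusted p = 0.0462). The other antigens of stem and progenitor cells gave no common direction. Of 7 markers that passed the filter among 10 listed, 2 rose and 1 fell in each comparison across LPS, and their summed levels overlapped between all groups, at 31.0 to 238 CPM in ALY688+LPS, 31.5 to 149 in LPS, 30.8 to 236 in ALY688 and 53.2 to 549 in PBS.

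Ly6e was the most abundant member. It ran from 524 over a median of 612 to 677 CPM in ALY688+LPS mice, and the LPS mice stood at 563, 577, 606 and 661 CPM. It ran from 309 over 467 to 518 CPM in ALY688 mice and from 249 over 437 to 591 CPM in PBS mice. The lowest ALY688+LPS mouse stood just above the highest ALY688 mouse, while LPS and PBS mice overlapped. Ly6e was 1.40-fold higher in ALY688+LPS than in ALY688 mice (log2 fold change 0.48 ± 0.16 SE, edgeR adjusted p = 0.0129). With library totals alone this call was lost (0.55, adjusted p = 0.199). The change for LPS against PBS was 0.42 ± 0.28 (95% interval -0.17 to 1.01, edgeR adjusted p = 0.246), and DESeq2 called a like value of 0.41 (adjusted p = 0.0425).

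Ly6a, Ly6c2 and Ly6e are interferon-inducible, and type I interferon-stimulated genes moved with LPS by more than these members did. Of 30 such genes, 25 rose with LPS against PBS (median log2 fold change 1.78), among them Bst2, a tethering factor for viruses, and Oas1a and Oas2, sensors of double-stranded RNA. With ALY688+LPS against ALY688, 27 rose (median 2.42), led by Oasl2, Rtp4 and Zbp1. Of 21 tested interferon-gamma-induced genes, 9 rose and 1 fell in the first comparison (median 0.40) and 13 rose and 1 fell in the second (median 0.62). The summed type I list spread widely, from 5569 to 37331 CPM in ALY688+LPS, 2609 to 18100 in LPS, 2197 to 14136 in ALY688 and 2189 to 10182 in PBS. Their part in the Ly6 changes was not tested.

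Per kilobase of the longest coding transcript, the order of the members' levels differed with LPS. In ALY688+LPS mice the mean levels per kilobase were 271 CPM for Ly6e, 163 for Ly6c2, 42.7 for Ly6a, 33.1 for Ly6g, 26.0 for Ly6d and 3.45 for Ly6c1. LPS mice gave the same order, with 264 CPM per kilobase for Ly6e, 150 for Ly6c2, 35.9 for Ly6a, 31.2 for Ly6g, 17.9 for Ly6d and 3.33 for Ly6c1. In ALY688 mice the order was Ly6e at 194, Ly6d at 111, Ly6c2 at 61.5, Ly6a at 24.3, Ly6c1 at 4.62 and Ly6g at 1.03 CPM per kilobase. PBS mice had this second order too, from 197 for Ly6e over 101 for Ly6d, 80.2 for Ly6c2, 25.2 for Ly6a and 4.17 for Ly6c1 to 1.41 for Ly6g. Ly6d thus stood above Ly6c2 on average without LPS and below Ly6g with it. Per kilobase of all annotated exons of a gene, Ly6c2 was lower and parts of the order changed. In LPS mice Ly6g at 31.2 CPM per kilobase then stood above Ly6a at 28.5, and in ALY688 mice Ly6a at 19.2 stood above Ly6c2 at 18.5. With the longest coding transcript, the group ranges of several members next to each other in the order overlapped. These ranges do not pair the genes of 1 library, so an overlap does not mean that the order turned within a mouse. With LPS the ranges of Ly6a and Ly6g overlapped, as did those of Ly6g and Ly6d, in both groups. Without LPS the ranges of Ly6e and Ly6d, of Ly6d and Ly6c2, and of Ly6c1 and Ly6g overlapped in both groups.

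The comparisons of ALY688 asked whether the agonist alters blood transcripts without and with LPS. In ALY688 against PBS none of the 5 tested members was called by edgeR, DESeq2 or limma-voom, and 0 of them had an unadjusted p below 0.05. Of all 11708 genes tested 0% were called, with 1250 at an unadjusted p below 0.05. The largest difference was in Ly6c2, at 50.6 ± 14.2 CPM (SD, n = 10) in ALY688 mice and 66.0 ± 24.3 (n = 9) in PBS mice. Its log2 fold change was -0.39 ± 0.21 (SE, 95% interval -0.82 to 0.04, edgeR adjusted p = 0.442).

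The other tested members differed less between ALY688 and PBS mice. The log2 fold changes were 0.11 for Ly6c1 (95% interval -0.39 to 0.61), -0.06 for Ly6a (-0.44 to 0.32), -0.03 for Ly6e (-0.42 to 0.35) and 0.11 for Ly6d (-0.29 to 0.52). Ly6g, with 1 to 42 counts per library, did not pass the filter on low counts. Without that filter its log2 fold change was -0.35 ± 0.46 (SE, edgeR adjusted p = 0.724), at 0.970 ± 0.768 CPM (SD, n = 10) in ALY688 mice and 1.33 ± 0.947 (n = 9) in PBS mice. These intervals leave room for changes of either sign. The Ly6c1 share differed by 2.05 points (exact permutation p = 0.174, adjusted p = 0.232).

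In ALY688+LPS against LPS none of the 6 members was called by edgeR, DESeq2 or limma-voom either, and 0 of them had an unadjusted p below 0.05. Of all 12741 genes tested 0% were called, with 463 at an unadjusted p below 0.05. The groups overlapped for all 6 members, and lay apart upward for 0.102% and downward for 0.157% of genes. Ly6d averaged 19.3 ± 10.8 CPM (SD, n = 7) in ALY688+LPS mice and 13.3 ± 7.41 (n = 4) in LPS mice, a log2 fold change of 0.51 ± 0.44 (SE, 95% interval -0.46 to 1.48, edgeR adjusted p = 0.913). Ly6a averaged 40.8 ± 12.5 CPM (SD, n = 7) in ALY688+LPS mice and 34.3 ± 2.82 (n = 4) in LPS mice, a change of 0.25 (95% interval -0.25 to 0.74).

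The remaining intervals for ALY688+LPS against LPS were -0.38 to 0.54 for Ly6g, -1.11 to 1.27 for Ly6c1, -0.44 to 0.67 for Ly6c2 and -0.39 to 0.46 for Ly6e, all on the log2 scale. The Ly6c1 share differed by -0.146 points (exact permutation p = 0.818, adjusted p = 0.818).

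The interaction asks whether the ALY688 difference under LPS differs from that without LPS. It was not called for any of the 6 members by edgeR, DESeq2 or limma-voom, with 0 of them at an unadjusted p below 0.05. Of all 13476 genes edgeR called 0%, with 1217 at an unadjusted p below 0.05, and DESeq2 called 4. Ly6c2 had the value farthest from 0 among the members, 0.50 ± 0.35 (SE, 95% interval -0.21 to 1.21, edgeR adjusted p = 0.539). The values of Ly6d, Ly6g, Ly6a, Ly6e and Ly6c1 were 0.39, 0.38, 0.31, 0.06 and -0.03. Both LPS comparisons share no mice, but the values of 5.01 and 4.61 for Ly6g, or 0.82 and 0.51 for Ly6a, were not shown to differ.

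Within groups, the genes with the highest correlation differed between members. After group means were taken out of log2 CPM, the genes most like Ly6d over all 30 libraries were Ighm (Pearson r = 0.94), Cd79a (0.93) and Cd79b (0.92), an immunoglobulin heavy chain and both chains of the B cell receptor complex. For Ly6c2 they were Ifi211 (0.90), an interferon-induced DNA sensor family member, Plac8 (0.87), a myeloid protein, and Met (0.86), the receptor for hepatocyte growth factor. For Ly6g they were Morf4l1 (0.67), Fkbpl (0.63) and Ltf (0.62), the last being lactoferrin of neutrophil granules. For Ly6c1 they were Tgtp1 (0.66), Nsg2 (0.63) and Gpr83 (0.62). These are descriptions of libraries that share group, depth and globin content. The genes were picked as the highest among up to 11592 genes. The highest of so many values can be sizeable by selection alone, and no chance level was computed. The lower values for Ly6g and Ly6c1 are the most open to this.

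For Ly6a and Ly6e the likeness was weaker without the libraries with few detected genes. The genes most like Ly6a were Mrto4 (0.75), Nsmf (0.74) and Cnot3 (0.73), and without the 6 libraries with few detected genes these values were 0.34, 0.28 and 0.15. Those most like Ly6e were Polm (0.85), Cdc16 (0.85) and Sash3 (0.83), with 0.64, 0.54 and 0.61 without those libraries. Among the members themselves, Ly6a and Ly6e correlated at 0.62 (0.37 without the 6 libraries) and Ly6c2 and Ly6a at 0.49 (0.53). Ly6c1 and Ly6c2, despite their shared sequence, correlated at 0.08.

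Other genes of the Ly6/uPAR family were read for comparison. Of 37 listed, 34 were matched, 10 of these had no count in any library, and 11 passed the low-count filter in some comparison. In LPS against PBS 3 of the 11 rose and 3 fell, where 38.7% of all genes tested were called. In ALY688+LPS against ALY688 3 rose and 2 fell, where 53.0% of all genes tested were called. None of those tested was called in the ALY688 comparisons by edgeR. With library totals alone only 1 of the 3 falls in LPS against PBS was called.

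Ly6i, which lies between Ly6e and Ly6a in the cluster, rose by 2.58 ± 0.32 (SE, log2, edgeR adjusted p = 1.36e-05) with LPS against PBS and by 3.52 ± 0.26 (adjusted p = 1.61e-09) with ALY688+LPS against ALY688. Its mean level was 24.5 CPM in ALY688+LPS, 19.2 in LPS, 2.12 in ALY688 and 3.09 in PBS mice. Cd177, a neutrophil surface protein that is also on the neutrophil marker list, rose by 3.91 ± 0.33 (adjusted p = 3.98e-07) and 3.77 ± 0.30 (adjusted p = 6.52e-09). Plaur, the urokinase receptor, rose by 1.64 ± 0.18 (adjusted p = 4.60e-06) and 1.76 ± 0.13 (adjusted p = 7.41e-10).

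Lynx1, a modulator of nicotinic acetylcholine receptors that lies beside Ly6d, fell in both comparisons, with log2 fold changes of -1.94 ± 0.36 (SE, edgeR adjusted p = 0.000493) for LPS against PBS and -2.47 ± 0.23 (adjusted p = 2.92e-08) for ALY688+LPS against ALY688. With library totals alone the first of these was -0.89 (adjusted p = 0.239). Ly6g6c and Ly6g6d of chromosome 17 fell with LPS against PBS, at -2.55 and -2.22 (edgeR adjusted p = 0.0142 and 0.0190), and stood at -0.89 and -0.78 (adjusted p = 0.171 and 0.150) with ALY688+LPS against ALY688. Without the 6 libraries with few detected genes, the values for LPS against PBS were smaller, at -1.50 (adjusted p = 0.0245) for Ly6g6c and -1.40 (adjusted p = 0.0584) for Ly6g6d, and Ly6g6c was called with ALY688+LPS against ALY688 (-0.97, adjusted p = 0.0483). PBS mouse 9, one of these libraries, had the highest level of both genes, 88.8 CPM of Ly6g6c and 10.4 CPM of Ly6g6d. The interaction was not called for any of the 11 genes. Lypd6b fell by 1.70 ± 0.31 (adjusted p = 0.000119) with ALY688+LPS against ALY688 and stood at -1.22 (adjusted p = 0.133) with LPS against PBS, where it was called without those 6 libraries (-1.61, adjusted p = 0.00749). Of 26 genes for synthesis and attachment of the GPI anchor, 4 rose and 3 fell with LPS against PBS (median 0.07), where 38.7% of all genes were called. With ALY688+LPS against ALY688 5 rose and 5 fell (median 0.05), where 53.0% of all genes were called. Pgap2 and Pgap1, which remodel the anchor, led both.

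**Figure D5:**
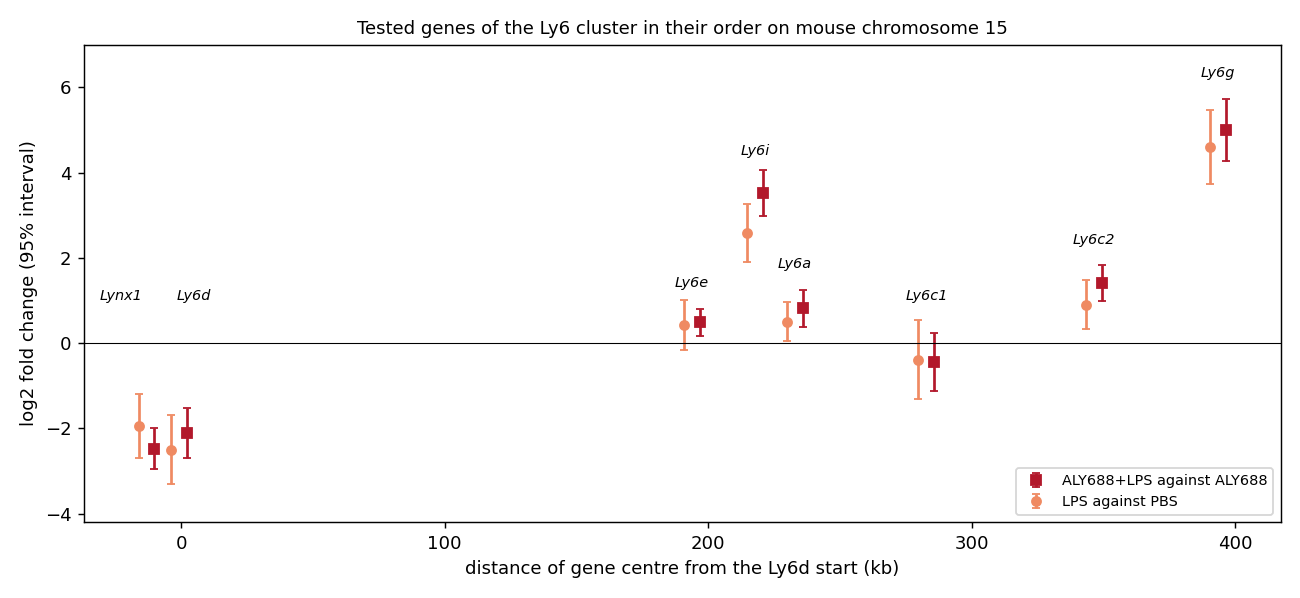
Log2 fold changes with 95% intervals of the tested Ly6 cluster genes in the 2 LPS comparisons, placed by the distance of each gene's centre from the start of Ly6d (kb). Lynx1 and Ly6d at one end lie below 0, Ly6c1 spans 0, and the values of Ly6i and of Ly6g at the far end are the highest in both comparisons.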

How the data were processed

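The labels list 34 mice, and blood RNA-seq tables of 30 were used (not analysed here were LPS mice 3, 4 and 5 and PBS mouse 10). The authors deposited 1 table of raw, whole-number counts per mouse. The submitters' processing notes name HISAT2 2.0.5 (an aligner) and featureCounts 1.5.0-p3 (a read counter). Not given in the sources used here were the strand setting, the treatment of shared reads and the genome build. Symbols and coordinates come from GENCODE M21 (54409 of 54532 IDs).

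Counts were filtered with filterByExpr, scaled with TMM and tested in edgeR 4.0.16 (robust glmQLFit, glmQLFTest, two-sided; R 4.3.3) with the compared groups only, or all 4 for the interaction. The Benjamini-Hochberg adjustment ran over all genes tested. The Ly6c1 share was compared with exact permutation tests (scipy 1.17.1). Alternatives used DESeq2 1.42.0 and limma 3.58.1, other scalings, filters, covariates and left-out libraries. Likeness used genes of at least 1 CPM on average and log2(CPM + 0.5). Coding sequences and promoters were aligned with Biopython 1.88. Each labelled mouse was taken as 1 replicate. Libraries of 1 group always differed by more than sampling noise (lowest chi-square per degree of freedom 8.02). Separate libraries of 1 animal could exceed sampling noise too, so this check cannot show that each library is a separate mouse. Named were all 6 members, the tested family genes, up to 3 leading genes of a described list and the 3 genes most like each member. The members and lists were chosen with earlier results of these data known. The edgeR tests were also run on simulated counts with the same dispersion for all genes and no composition difference between libraries. That check therefore does not cover the unequal globin content of these libraries.

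Equal mouse numbers in different groups gave no clear sign of paired samples. Deviations from group means correlated above 0.1 in 2 of 9, 1 of 3, 2 of 4 and 2 of 7 same-numbered pairs of the 4 comparisons. Differently numbered pairs were not set beside them, so this check cannot exclude a pairing.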

Additional observations from a re-analysis of the deposited data

Results flagged for a closer look

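In the ALY688 group, the Ly6g level of mouse 6, 2.67 CPM from 42 counts, lay far from the other 9 mice, with a gap to its neighbour of 0.479 of the group's range. The critical value for 10 mice is 0.466. Among 28 groups of values checked this was the only such case, and chance alone marks about 1 in 20.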

How the results depend on the processing

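The rise of Ly6g in both LPS comparisons and the rise of Ly6c2 and fall of Ly6d in ALY688+LPS against ALY688 kept their direction and stayed past the threshold in all alternatives run. With library totals in place of TMM, the median log2 fold change of all genes was 0.50 for ALY688 against PBS, -0.49 for ALY688+LPS against LPS, 1.04 for LPS against PBS, 0.03 for ALY688+LPS against ALY688 and -0.997 for the interaction, and member values shifted with it. The count of called members in ALY688+LPS against ALY688 was then 3 instead of 5, and 3050 instead of 6504 genes were called in all. Signs turned for Ly6c2 (0.13), Ly6a (0.40) and Ly6e (0.41) in ALY688 against PBS. In ALY688+LPS against LPS they turned for Ly6g (-0.31), Ly6c1 (-0.26), Ly6c2 (-0.37), Ly6a (-0.16), Ly6e (-0.44) and Ly6d (-0.24). For LPS against PBS, Ly6c1 became 0.33, Ly6a and Ly6e were called (1.48 and 1.40) and Ly6d was not (-1.41). The interaction turned for Ly6g (-0.61), Ly6c2 (-0.50), Ly6a (-0.55), Ly6e (-0.85) and Ly6d (-0.79). None of the turned values was called.

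With the globin percentage as a covariate, Ly6d became -0.12 in ALY688 against PBS, Ly6g -0.040 and Ly6c1 -0.45 in ALY688+LPS against LPS, and Ly6c1 0.54 in LPS against PBS. Summed Ly6c counts gave -0.36, 0.86, 1.33 and, for the interaction, 0.47, against the opposite sign for Ly6c1 alone. The Ly6c1 interaction was 0.23 with limma-voom and 0.071 without the 6 libraries with few genes. The cause was not tested for any of these. Without the filter on low counts Ly6a was called in LPS against PBS (0.63, adjusted p = 0.0404).

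With the mouse number as a replicate block, which the check of pairing does not back, Ly6c2 in LPS against PBS was 0.92 (adjusted p = 0.0698), Ly6e in ALY688+LPS against ALY688 was 0.46 (adjusted p = 0.166), and Ly6c1 and Ly6a in ALY688+LPS against LPS were -0.27 and -0.077. Called members then numbered 2 and 4 in the LPS comparisons. No paired analysis was run for the interaction and the share.

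Leaving out each library gave 2 to 4 called members in LPS against PBS, 5 in ALY688+LPS against ALY688 and 0 elsewhere. Without LPS mouse 2 only Ly6g and Ly6d were called. The share difference ran from 1.42 to 2.48 for ALY688 against PBS, -0.742 to 0.558 for ALY688+LPS against LPS (0.487 as a difference of medians), -3.89 to -2.59 for LPS against PBS and -5.77 to -4.75 for ALY688+LPS against ALY688. In single-gene values, leaving out 1 library turned signs only where no call was made. In ALY688 against PBS the ranges were -0.0041 to 0.19 for Ly6c1, -0.14 to 0.011 for Ly6a and -0.11 to 0.0056 for Ly6e. In ALY688+LPS against LPS they were -0.057 to 0.26 for Ly6g, -0.26 to 0.61 for Ly6c1, -0.0049 to 0.22 for Ly6c2 and -0.0041 to 0.090 for Ly6e. The Ly6c1 interaction ran from -0.38 to 0.48. Depth limits Ly6c1 throughout and Ly6g without LPS.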
